A study of Caenorhabditis elegans with 10 samples.

Results

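RNA recovered from the PVD and OLL sensory neurons of *mec-3(e1338)* mutant larvae was compared with RNA from the same neurons of wild-type (N2) larvae, gene by gene, on 6 of the 10 tiling arrays of the series. The members are the 3 arrays titled *mec-3(e1338)* PVD/OLL and the 3 titled wildtype PVD/OLL, and they carry values for 18451 genes. The other arrays, 2 *mec-3(e1338)* and 2 wild-type whole-animal samples, took no part in the test. All larvae were at the L2/L3 stages and had been grown at 25 °C on bacteria. In both genotypes the PVD/OLL messages were pulled down through PAB-1, a protein that binds poly(A) tails, which carried FLAG epitopes and was driven by a *ser-2* promoter fragment (prom3B), so the mutant and its control both carry the tag. Tagged messages are recovered from lysate of the whole larva, and the samples hold whatever cells express the tag together with any RNA carried along. In such bulk samples, fewer cells of a type and less RNA per cell cannot be told apart.

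PVD is a pair of neurons of the body wall that sense harsh touch and cold and spread a dendrite of repeated, ordered branches under the skin. OLL is a pair of ciliated sensory neurons of the lips. The *mec-3* product is a transcription factor of the LIM homeodomain kind that acts in PVD and in the gentle touch neurons; in mutants the higher branches of the PVD dendrite fail to form and touch neuron genes are not switched on. The comparison lists the messages recovered with the tag that differ between *mec-3* and wild-type larvae. An effect of *mec-3* in these neurons cannot be told apart here from carried-over RNA of other cells. Nor can it be told apart from other differences between the mutant strain and wild type, or from a difference in stage within L2/L3, which was not checked.

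The rows carry WormBase gene identifiers (WBGene and a number) and no names. The reference table used here, with 46926 rows, pairs 0 of them with a symbol, so *mec-3* itself, the markers of PVD, OLL and other tissues, and every pathway list were not analysed here. Neither the genotype nor the labelled cell type was therefore checked against a defining gene. Changed genes are described by level, by direction and by blocks of 500 consecutive numbers. As background, WormBase first numbered its genes largely in the order of their names, so genes of one named class can have neighbouring numbers. For which parts of the numbering this holds was not checked here, so neighbours in a block need not share a class. No block below is given a class, name or role.

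The 3 *mec-3* arrays resembled each other more than the 3 wild-type arrays did. Pearson correlations across genes were 0.982 to 0.984 among *mec-3* arrays and 0.961 to 0.977 among wild-type arrays, and 0.935 to 0.955 between the genotypes. Wild-type replicate 3 gave the lowest values in both ranges that include it. A gene's SD over the 3 arrays of a genotype had a median of 0.195 (log2) for *mec-3*, against 0.294 for wild type.

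Relative to wild type, *mec-3* PVD/OLL had 655 genes with lower and 476 with higher values (limma, Benjamini-Hochberg adjusted p under 0.05), which is 3.55% and 2.58% of all genes tested. These are the genes referred to as lower and higher below. Lower genes had a median level of 6.38 (log2) in *mec-3* and 8.56 in wild type, with a median difference of -1.55. Higher genes had a median level of 9.22 in *mec-3* and 8.00 in wild type, with a median difference of 1.08. Over all genes the median difference was -0.07. The middle 50% of differences ran from -2.31 to -1.15 among lower genes and from 0.92 to 1.34 among higher genes. Differences of under 2-fold made up 15.1% of lower genes and 36.6% of higher genes, so the rises were the shallower group. Differences of at least 4-fold were found in 217 lower genes (1.18% of all tested) and 25 higher genes (0.135%), and differences of at least 16-fold in 50 lower genes (0.271%) and 1 higher gene.

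Which direction held more genes depended on how the arrays were scaled. With each array centred on its median, 583 genes were lower and 709 higher, and the median over all genes was 0.03 in place of -0.07. With quantile normalization of the 6 arrays, 594 were lower and 547 higher. The large changes did not turn with the scaling: 198 genes were at least 4-fold lower under either, against 28 higher after centring and 24 higher after quantile normalization. The counts also depended on single arrays. Without *mec-3* replicate 1, 2 or 3 there were 367, 370 or 346 lower and 127, 134 or 106 higher genes. Without wild-type replicate 1 there were 658 lower and 378 higher, without replicate 2 447 and 274, and without replicate 3 580 and 379. Each such fit also had 1 array fewer. Under none of the 14 alternatives was a gene called in the direction opposite to its call with all 6 arrays.

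The genes with the largest changes, ranked by difference among called genes with no overlap between the genotypes, are given with the value on every array. WBGene00086560 had the largest fall and measured 5.28, 6.37 and 4.60 (log2) on *mec-3* replicates 1, 2 and 3, against 14.04, 14.38 and 14.20 on wild-type replicates 1, 2 and 3. The wild-type arrays were all among the brightest values of the table and close together, while the *mec-3* arrays were spread over more than 1 log2 unit and far below. The means were 5.42 ± 0.89 in *mec-3* and 14.20 ± 0.17 in wild type (SD, n = 3 each), a difference of -8.79 (SE 0.40, limma adjusted p = 1.59e-05) or 442-fold. Its mean ranked above 36.4% of genes in *mec-3* and above 99.9% in wild type.

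WBGene00001728 measured 4.45, 6.04 and 5.86 in *mec-3* against 13.12, 12.83 and 13.10 in wild type. Again the groups were far apart, with the *mec-3* arrays the more scattered. The difference was -7.57 (SE 0.39, limma adjusted p = 2.76e-05), a 189-fold fall to 5.45 ± 0.87 in *mec-3*, against 13.02 ± 0.16 in wild type (SD, n = 3 each). Both genes ended below the median level of all genes in *mec-3*. No detection call was used here, so the exact fold depends on how the background was handled before deposit.

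WBGene00013007 had the largest rise and measured 10.36, 10.51 and 10.44 in *mec-3* against 6.18, 5.62 and 6.68 in wild type. Here the *mec-3* arrays were the tight group. The difference was 4.28 (SE 0.27, limma adjusted p = 7.79e-05), or 19.4-fold, the single rise past 16-fold. WBGene00008565 measured 10.61, 10.78 and 11.22 in *mec-3* against 8.26, 6.46 and 7.06 in wild type. Its wild-type arrays were widely spread, with replicate 1 the highest, and all lay below the *mec-3* arrays. The difference was 3.61 (SE 0.42, limma adjusted p = 0.00223), or 12.2-fold.

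The same identifiers were read on the whole-animal arrays, which share no sample with the test. Whether those arrays were normalized together with the PVD/OLL arrays is not given in the sources used here. WBGene00086560 measured 9.03 and 6.92 in *mec-3* against 14.86 and 14.89 in wild-type whole animals, and WBGene00001728 5.72 and 5.89 against 13.00 and 12.89. WBGene00013007 measured 10.50 and 10.57 in *mec-3* against 6.11 and 5.53 in wild type, and WBGene00008565 11.05 and 10.29 against 8.05 and 7.24. The groups did not overlap for any of the 4 genes, and each differed in the same direction as in the neurons. No test of the whole-animal values was made here.

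**Figure D1:**
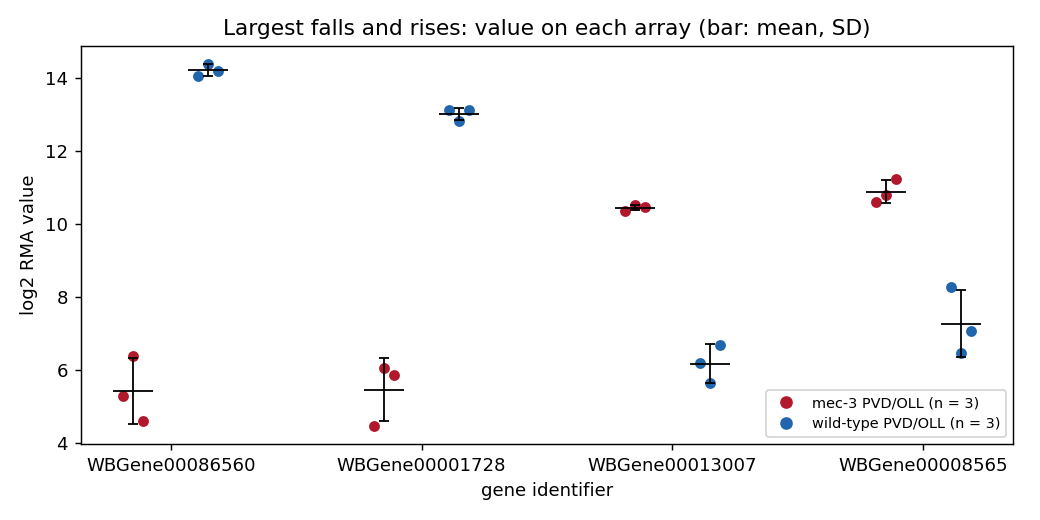
Log2 RMA values of the 2 genes with the largest fall and the 2 with the largest rise on each PVD/OLL array, with *mec-3* (red) left of wild type (blue); black bars mark the mean and SD of 3 arrays. The groups do not overlap for any of the 4 genes, and the *mec-3* arrays are scattered for the genes that fell and the wild-type arrays for those that rose.

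The 50 genes that were at least 16-fold lower were bright in wild type. In *mec-3* they had a median level of 5.59, below the 6.52 of all genes there. Their median on the 3 *mec-3* arrays was 5.52, 5.69 and 5.78, against 10.55, 10.71 and 10.38 on the 3 wild-type arrays, so the arrays of each genotype lay close together and the genotypes far apart. Single genes of this group averaged 3.74 to 9.23 in *mec-3* and 8.21 to 14.20 in wild type. Of all 655 lower genes, 63 lay in the bottom 25% of all 3 *mec-3* arrays. Of these, 9 lay above the median of all 3 wild-type arrays and 1 in the top 25% of all 3. The top 25% of all 6 arrays held 116 lower genes. Among the 476 higher genes, 5 lay in the bottom 25% of all 3 wild-type arrays and 0 of these were above the median of all 3 *mec-3* arrays, whereas 192 lay in the top 25% of all 6 arrays. Calls of either kind were few at the dim end of the scale: the dimmest 25% by mean level held 25 lower genes and 1 higher. The share of all genes that met these criteria was not counted. These counts therefore do not tell whether called genes differ from the rest in where they lie.

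The share of called genes increased with brightness in both directions. Genes were split into 4 classes of 25% each by their mean over the 6 PVD/OLL arrays; brightness depends on a gene's probes as well as on its RNA. In the dimmest 25% (levels up to 4.73), 25 genes, or 0.542%, were lower and 1, or 0.0217%, was higher. In the next brighter class 183 (3.97%) were lower and 47 (1.02%) higher, and in the one above it 204 (4.42%) were lower and 140 (3.04%) higher. In the brightest 25% (levels from 8.22) 243 (5.27%) were lower and 288 (6.24%) higher. Which direction was the more numerous there depended on single arrays: without *mec-3* replicates 1, 2 and 3 the brightest class had 128, 132 and 120 lower and 67, 77 and 52 higher genes. Without wild-type replicate 2 it had 148 lower and 178 higher, without wild-type replicate 1 it had 237 of each, and with the replicate block 177 lower and 170 higher. The spread between arrays moved with level as well: *mec-3* arrays had a median SD of 0.146 in the brightest 25% and 0.196 in the dimmest, and wild-type arrays 0.250 and 0.316. Its part in the counts was not tested.

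Among large changes the falls were the more numerous in each class that held any. At least 4-fold lower were 0, 67, 78 and 72 genes from the dimmest to the brightest class, and at least 4-fold higher 0, 4, 11 and 10. The median difference of higher genes was 1.17, 1.10 and 1.08 from the second class to the brightest, and that of lower genes -1.66, -1.69 and -1.34. A large fall lowers the mean by which a gene was placed, so some genes bright in wild type stand in the middle classes.

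A split by the 2 wild-type whole-animal arrays, which took no part in the test, moved the lower genes toward the bright end. It places genes by wild type alone, the genotype in which lower genes are high. Since 628 of the 655 lower genes were also lower in *mec-3* whole animals, part of this shift was built into the split. In the 25% brightest by that split, 429 genes (9.30%) were lower and 228 (4.94%) higher in *mec-3* PVD/OLL. In the dimmest 25%, 17 (0.369%) were lower and 17 higher. Of the 50 genes at least 16-fold lower, 49 were in that brightest class. Under all 14 alternatives the brightest 25% by the PVD/OLL arrays held more lower and more higher genes than the dimmest, 120 to 344 lower and 52 to 519 higher. In 2 of the 14 the dimmest genes had been left out, which leaves none to compare with.

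**Figure D2:**
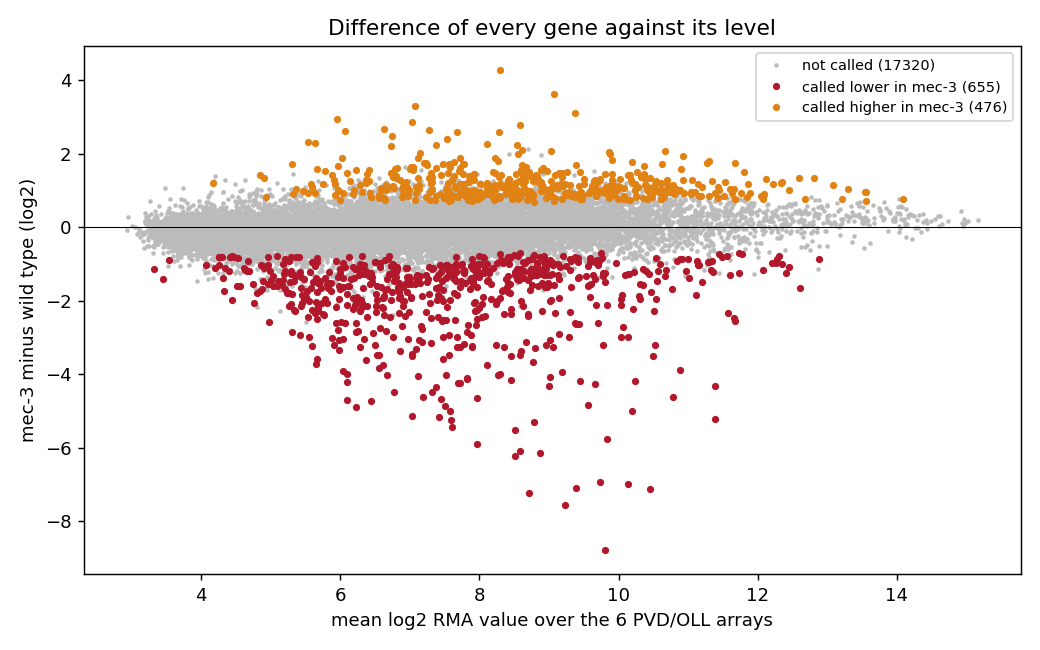
Difference between *mec-3* and wild-type PVD/OLL (log2, vertical axis) of each of 18451 genes against its mean over the 6 arrays (log2 RMA value, horizontal axis), with lower genes in red, higher genes in orange and the rest in grey. The falls reach -8.79 and spread over the middle and bright levels, while the rises form a shallow band that thickens to the right and reaches 4.28.

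**Figure D3:**
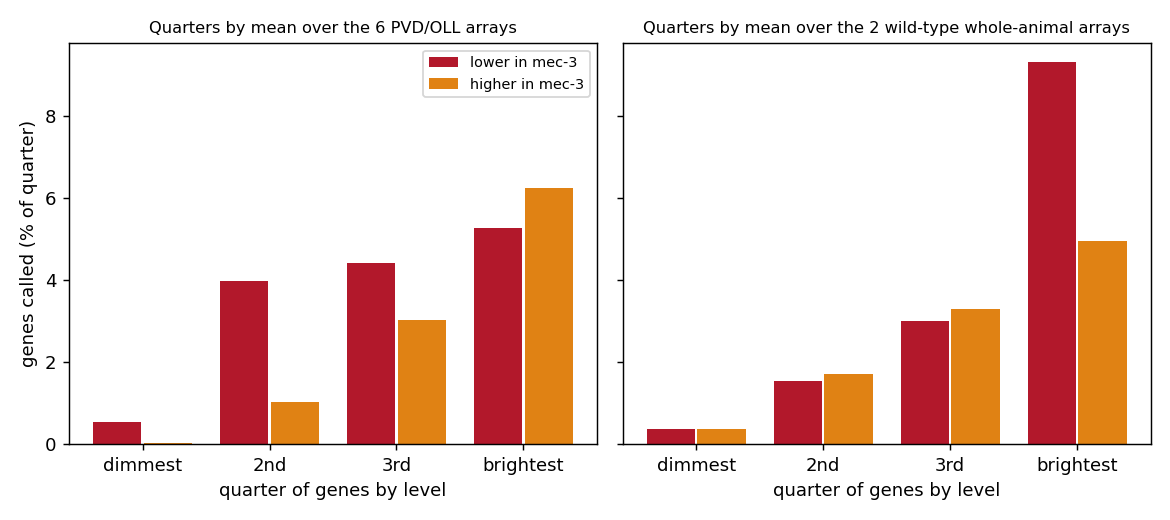
Share of genes called lower (red) and higher (orange) in *mec-3* PVD/OLL in classes of 25% by level over the 6 PVD/OLL arrays (left) and over the 2 wild-type whole-animal arrays (right), from dimmest to brightest. On the left the brightest class has 5.27% lower and 6.24% higher genes; on the right it has 9.30% lower and 4.94% higher.

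Lower and higher genes were found across the whole range of WormBase numbers. The measured genes fall into 62 blocks of 500 numbers, of which 46 hold at least 200 measured genes (216 to 450). Within these 46 the share of lower genes ran from 0.412% to 9.79% with a median of 3.53%, and the share of higher genes from 0% to 5.84% with a median of 2.55%. Lower genes outnumbered higher genes in 38 of the 46 blocks and higher genes were in the majority in 8. Over all genes 655 were lower and 476 higher, and that balance turned once each array was centred (583 lower, 709 higher). The 16 smaller blocks hold 446 genes, with 19 lower and 5 higher. A gene at least 16-fold lower occurred in 25 of the 46 blocks.

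Numbers 501 to 1000 had the highest share of lower genes. Of 378 measured genes 37 (9.79%) were lower and 17 (4.50%) higher, against 3.55% and 2.58% of all genes. The 37 lower genes had medians of 7.46, 7.38 and 7.51 on the *mec-3* arrays, against 10.10, 10.76 and 9.22 on the wild-type arrays, with wild-type replicate 3 the lowest of its group and still well above *mec-3*. Gene by gene they averaged 4.80 to 11.08 in *mec-3* and 5.73 to 13.55 in wild type, with a median difference of -1.88. Among them 15 were at least 4-fold and 8 at least 16-fold lower, and 0 genes of the block were at least 4-fold higher.

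The largest fall of this block measured 6.30, 6.23 and 6.27 in *mec-3* against 13.43, 13.25 and 12.92 in wild type, a tight pair of groups and a difference of -6.93. The smallest called fall measured 6.26, 6.41 and 6.25 in *mec-3* against 7.19, 7.11 and 6.96 in wild type (difference -0.78). The 17 higher genes had medians of 10.54, 10.60 and 10.42 on the *mec-3* arrays and 9.18, 9.28 and 9.30 on the wild-type arrays. Leaving out *mec-3* replicates 1, 2 and 3 in turn left 3, 6 and 2 higher genes in the block, and leaving out wild-type replicate 2 left 7. The largest rise in it measured 11.13, 10.85 and 11.26 in *mec-3* against 9.92, 8.71 and 9.30 in wild type, a difference of 1.77. The 324 genes of the block that were not called had a median difference of 0.00.

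The block is bright, with 42.1% of its genes in the brightest 25% by the PVD/OLL arrays. Among genes of that class alone, 21 of 159 (13.2%) were lower in numbers 501 to 1000 and 222 of 4454 (4.98%) in the rest, while 8.81% and 6.15% were higher. Among genes of the 25% brightest in wild-type whole animals, 31 of 167 (18.6%) were lower in the block and 398 of 4446 (8.95%) in the rest; there numbers 19501 to 20000 had the same share, 16 of 86 (18.6%), and numbers 15501 to 16000 had 15 of 84 (17.9%). The whole-animal class is set by wild type alone. Genes that fall in *mec-3* thus enter it by the genotype in which they are high. The block's place at the head of the list depended on how brightness was taken into account. It had the highest share of lower genes in 13 of the 14 alternatives, at 5.29% to 14.6%, and, once the dimmest 25% had been removed, stood at 10.5%, behind the 11% of numbers 15501 to 16000. Without *mec-3* replicates 1, 2 and 3, the block had 20, 21 and 22 lower genes; without wild-type replicate 2 it had 25 and without wild-type replicate 3 it had 34.

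The lower genes of the block were gathered in a part of it. Numbers 601 to 800 held 26 of the 37 among 160 measured genes (16.2%), and the other 218 genes of the block had 11 (5.05%). On the 3 *mec-3* arrays the median of the 26 was 7.61, 7.56 and 8.00, and on the 3 wild-type arrays 10.27, 10.89 and 10.39. In finer blocks of 100 numbers with at least 40 measured genes, 219 in all, the highest shares of lower genes were 14 of 71 in numbers 601 to 700, 13 of 91 in numbers 1701 to 1800 and 12 of 89 in numbers 701 to 800. The median block of 100 had 2.99% lower genes. These finer blocks were chosen after the values were seen and are given as a description.

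**Figure D4:**
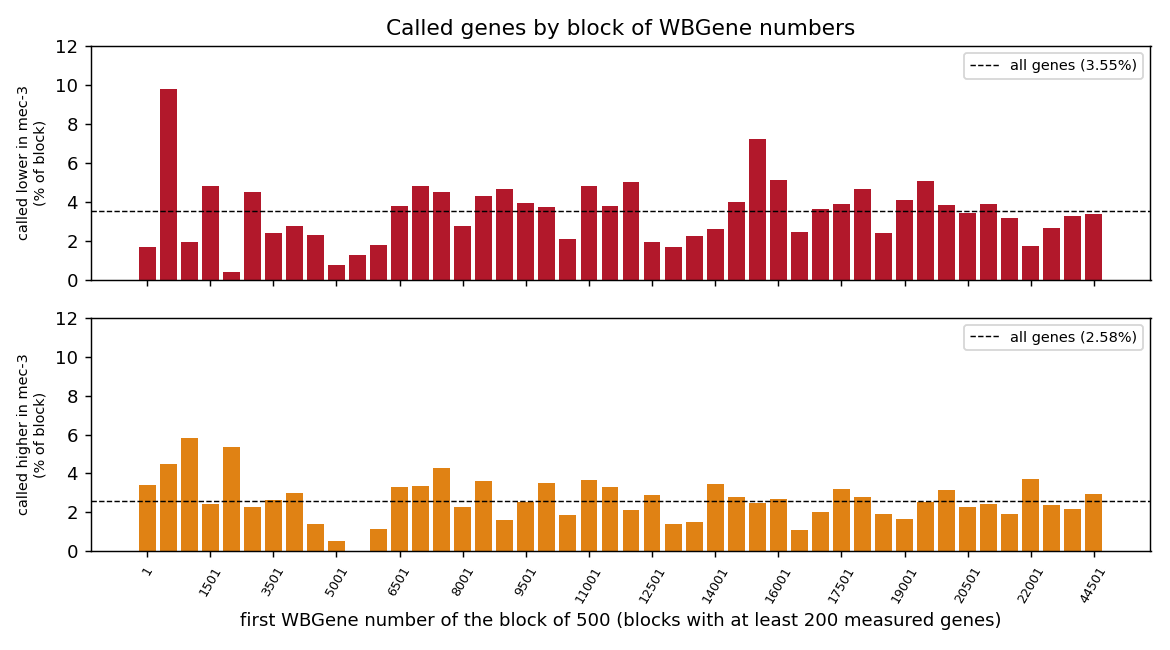
Share of genes called lower (top, red) and higher (bottom, orange) in *mec-3* PVD/OLL in each of 46 blocks of 500 WBGene numbers, with the share over all genes as a dashed line. Numbers 501 to 1000 stand out for lower genes at 9.79%, and numbers 1001 to 1500 head the higher genes at 5.84%.

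**Figure D5:**
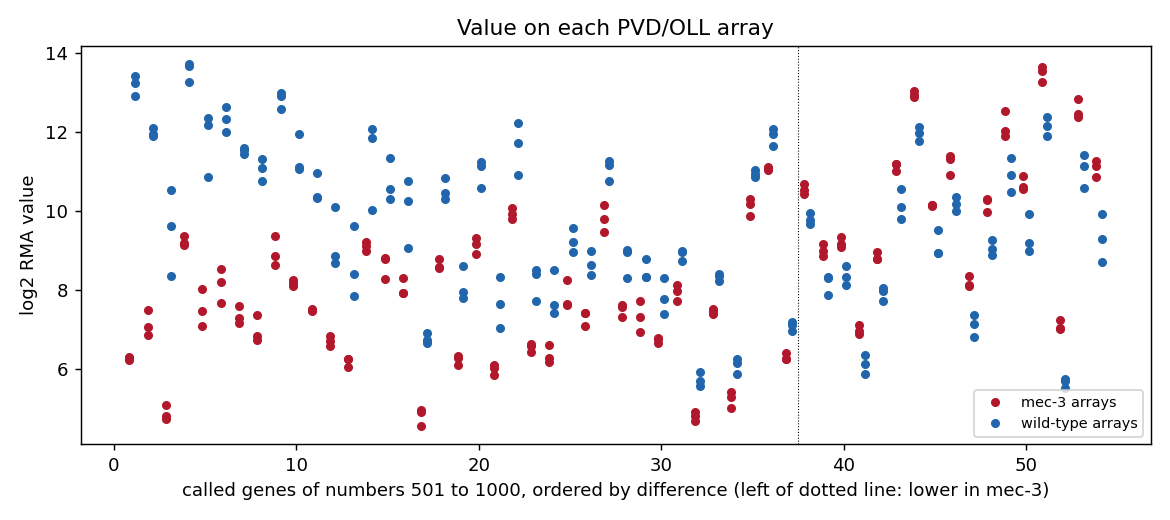
Log2 RMA value on each PVD/OLL array of the 37 lower and 17 higher genes of numbers 501 to 1000, ordered by difference, with *mec-3* arrays in red and wild-type arrays in blue. The lower genes left of the dotted line include 8 falls of at least 16-fold, while the rises on the right reach 1.77 log2 units.

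Numbers 1701 to 1800 held large falls. Of 91 measured genes 13 (14.3%) were lower, 8 of them at least 4-fold and 5 at least 16-fold, and 3 were higher. The 13 had medians of 6.76, 6.83 and 6.97 on the *mec-3* arrays, against 10.36, 10.65 and 9.80 on the wild-type arrays, and a median difference of -3.12 (log2), against -1.55 over all lower genes. The other 282 genes of numbers 1501 to 2000 had 5 lower genes. Taken as one, numbers 601 to 800 and 1701 to 1800 hold 1.36% of the measured genes, 5.95% of the lower genes and 10 of the 50 falls of at least 16-fold. They were picked for their shares of lower genes, so some excess is built in. They are also bright: 49.4% of their genes lie in the brightest 25%, against 24.7% of all others. No share matched for brightness was counted. In whole animals the lower genes of the ranges had median differences of -2.22 and -4.58, all 26 and all 13 of them below 0, as were 95.9% of all lower genes. Under the 14 alternatives the first range had 13 to 37 lower genes and the second 9 to 14.

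Numbers 15501 to 16000 had the next highest share of lower genes, 32 of 443 (7.22%), with 11 higher. This block is dim, with a median level of 5.67 and 32.3% of its genes in the dimmest 25%. Its 32 lower genes had medians of 5.43, 5.66 and 5.73 in *mec-3* against 7.66, 7.66 and 7.90 in wild type, and 13 were at least 4-fold lower. Without *mec-3* replicates 1, 2 and 3 the block had 17, 17 and 18 lower genes. It had 21 without the dimmest 50% of genes and 40 with array weights. In the brightest 25% by the PVD/OLL arrays, 4 of its 72 genes (5.56%) were lower, near the 5.27% of that whole class. Numbers 16001 to 16500 followed with 23 of 450 (5.11%), 12 of them at least 4-fold and 4 at least 16-fold lower. Numbers 19501 to 20000 had 22 of 433 (5.08%), numbers 12001 to 12500 21 of 420 (5%) and numbers 7001 to 7500 20 of 414 (4.83%). These last shares lie near the 3.55% of all genes.

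Numbers 1001 to 1500 had the highest share of higher genes, 18 of 308 (5.84%), with 6 lower genes. The 18 had medians of 10.62, 10.86 and 10.50 on the *mec-3* arrays, against 9.56, 9.47 and 9.41 on the wild-type arrays, so they were bright genes with small rises (median difference 1.11). Numbers 2001 to 2500 had 13 higher genes among 243 (5.35%) and 1 lower gene, with medians of 10.31, 10.38 and 10.12 in *mec-3* against 9.06, 9.50 and 8.95 in wild type. Both blocks are bright, with 52.6% and 42.4% of their genes in the brightest 25%. Within that class 17 of 162 genes (10.5%) of numbers 1001 to 1500 and 9 of 103 (8.74%) of numbers 2001 to 2500 were higher, against 6.24% of all its genes. Numbers 7501 to 8000 (4.28%), 22001 to 22500 (3.72%) and 11001 to 11500 (3.68%) came next after numbers 501 to 1000. The order was not firm: numbers 1001 to 1500 led in 8 of the 14 alternatives and numbers 2001 to 2500 in 5. Without *mec-3* replicates 1, 2 and 3, numbers 1001 to 1500 had 5, 6 and 5 higher genes in place of 18, and without wild-type replicate 2 they had 7. Without the same *mec-3* replicates, 0.823%, 0.823% and 0.412% of numbers 2001 to 2500 were higher.

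Numbers 5001 to 6500 had few changed genes and were dim. Of 1120 measured genes 14 (1.25%) were lower and 6 (0.536%) higher. Their median was 4.01, 3.90 and 3.94 on the *mec-3* arrays, against 3.87, 4.10 and 4.44 on the wild-type arrays, and 77.9% of them lay in the dimmest 25%. Among the 247 that lay above it, 11 (4.45%) were lower and 6 (2.43%) higher, against 4.55% lower and 3.45% higher among such genes elsewhere. A change in a gene also moves the level by which it was placed, and the part of brightness in the low share was not tested.

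Genes with consecutive numbers resembled each other weakly in their response. Over 15774 pairs of measured genes whose numbers differ by 1, the differences correlated at r = 0.14 and the levels at r = 0.35, across genes that share the same 6 arrays and of which most enter 2 pairs. Where the gene of the lower number was lower in *mec-3*, the next was lower as well in 57 of 565 pairs (10.1%), against 3.55% of all genes. Where it was higher, the next was higher in 26 of 413 pairs (6.30%), against 2.58%. The shares over all genes are not matched for level, which neighbours share in part and with which the called share rises. In 35 pairs the genes were called in opposite directions. With numbers 501 to 1000 and 1501 to 2000 left out, 48 of 517 pairs (9.28%) were lower together. Within blocks, the correlation of differences was r = 0.10 in numbers 501 to 1000, 0.23 in numbers 1501 to 2000 and 0.45 in numbers 15501 to 16000. The last holds 401 pairs, with 6 pairs lower together and 0 called in opposite directions.

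In whole animals most called genes of any block lay on the same side of 0 as in PVD/OLL: this held for 95.9% of those called lower (628 of 655) and 97.7% of those called higher (465 of 476), against 68.6% of all genes. All 37 lower and all 17 higher genes of numbers 501 to 1000 did so, as did 236 of its 324 genes that were not called. The called genes of the block had median whole-animal differences of -2.18 (lower) and 1.23 (higher), against -1.88 and 1.03 in PVD/OLL. Over all lower genes the median difference was -1.70 in whole animals and -1.55 in PVD/OLL. Over all higher genes it was 1.37 and 1.08. All 50 genes at least 16-fold lower in PVD/OLL lay lower in *mec-3* whole animals too, with differences of -8.67 to -3.19 (log2). Their median difference was -4.78 there and -4.72 in PVD/OLL. Whether these groups differ more in the tagged neurons than in the animal as a whole was not tested.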

How the data were processed

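The authors deposited 1 log2 value per gene and array, made with RMA (background correction, normalization between arrays, probe summary) per the submitters' processing notes, which give no version. The log2 scale was read from the values. For genome build, gene models, probe assignment and the set of arrays normalized together: not given in the sources used here. Per the labels, RNA was amplified and biotin-labelled with NuGEN kits. The table had 0 missing values and 0 columns of no sample. The number of arrays limits the precision.

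Groups came from the sample titles, which call the samples biological replicates. The 6 PVD/OLL arrays were fitted with a mean per group (lmFit and eBayes, limma 3.58.1, R 4.3.3), two-sided, with Benjamini-Hochberg adjustment over 18451 genes, no filter and a threshold of 0.05. The fit was tested on simulated data with independent normal noise and the same SD per gene in both genotypes. That simulation does not cover the difference in spread between the genotypes or the dependence on single arrays. Named genes are the first 2 in each direction by difference among called genes without overlap, the rule for unnamed identifiers. The comparison, blocks and lists were chosen with earlier results of these data known; the minimum of 200 measured genes per ranked block, blocks of 100, the ranges of numbers described and the split of blocks by brightness were chosen after seeing the data. Lists and families by gene symbol were not used, since no identifier could be paired with a symbol. The 14 alternatives were 8 other settings and each of 6 arrays left out.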

Additional observations from a re-analysis of the deposited data

How the results depend on the processing

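The counts of 655 lower and 476 higher genes changed by more than 1.5 times under these settings. Array weights gave 1021 lower and 785 higher genes. Leaving out the dimmest 50% of genes gave 779 higher. With each array left out in turn, lower genes numbered 346 to 658 and higher genes 106 to 379. With the replicate block there were 546 lower and 297 higher genes; the deviations of same-numbered arrays correlated at -0.06, 0.03 and 0.04, so the numbers were not taken as pairs. Besides arrays left out, the count stayed within 1.5 times under 7 of 8 settings for lower genes and 5 of 8 for higher genes. The 4 named genes kept their direction and passed the threshold under all 14 alternatives, with limma adjusted p up to 0.0128. The cause of the changed counts was not tested; fits without an array, or with a block, have fewer residual degrees of freedom. Blocks that start 250 numbers later put numbers 251 to 750 first for lower genes (8.96%). Alternatives planned for gene lists by symbol were not run, since identifiers have no names here.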
